A study of Mus musculus with 39 samples.

Results

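The genes examined here carry the transforming growth factor beta (TGF-beta) signal in microglia. They are 9 genes, Tgfb1, Nrros, Tgfbr1, Tgfbr2, Smad2, Smad3, Smad4, Smad7 and Skil, chosen by symbol as parts of this pathway, of 46333 genes in the female table and 54532 in the male table. Microglia were taken with CD11b magnetic beads from the papain-digested cerebrum of wildtype (WT, C57BL/6J) and 5XFAD mice, and their mRNA was sequenced in bulk. The 5XFAD mice carry mutant human familial Alzheimer's disease transgenes, which the Thy1 promoter drives in neurons and not in microglia, and came from a B6SJL-Tg line crossed to C57BL/6J. From 4 months of age the mice were kept in chronic intermittent hypoxia (CIH), in which inspired oxygen swung between 6.5% and 21% at 90-s intervals for 8 h per day by the sample labels, or in normoxia (NX, 21% oxygen). The methods of the study give a slightly lower oxygen minimum and more hours per day. Females (F) were taken at 10 months of age and males (M) at 8 months. Both genotypes were sampled under both treatments in each sex, with 5 libraries in each of the 4 groups except for 4 in F WT NX. Sex, age, length of exposure and the table the values came from differ together and cannot be told apart, so each comparison was made within a sex.

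TGF-beta1 is made as a latent complex, and microglia hold it on their surface with Nrros (also called Lrrc33), which presents it to integrins that free the active ligand. The ligand binds the type II receptor Tgfbr2, which recruits and phosphorylates the type I receptor Tgfbr1, and Tgfbr1 in turn phosphorylates Smad2 and Smad3. These join Smad4 and enter the nucleus, where Skil (SnoN) represses their target genes, and the inhibitory Smad7 blocks the receptor complex. In the adult brain this pathway is known for keeping microglia in their homeostatic state, with genes such as P2ry12, Tmem119 and Sall1 among those that depend on it.

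The female libraries held 14731683 to 25906121 counts in total, and the male ones 13457293 to 23095627. The smallest count of any member in any library was 450 (Smad4 in M 5XFAD NX), so all 9 members passed the filter on low counts (counts per library total, CPM, above 1 in at least 3 libraries) in every comparison. The summed level of 10 microglial markers was 25720 to 44719 CPM, here and below scaled with TMM factors (trimmed mean of M values, which correct for composition) within a sex, over all 39 libraries, and no marker of the list was at 0 in a group. Markers of other cells were also detected, at lower levels: 7 border macrophage markers summed to 69.3 to 336 CPM, 6 astrocyte markers to 124 to 992 CPM and 6 neuronal markers to 1.28 to 13.8 CPM. The sum of 6 neutrophil markers was 10.1 to 1245 CPM, and that of 6 oligodendrocyte markers 139 to 585 CPM. The library labelled F 5XFAD NX 4 went against its label. Cst7, a marker of disease-associated microglia, was at 14.9 CPM in it and at 1168 to 2488 CPM in the other 4 libraries of the group. Its scaling factor was 1.271, against 0.848 to 0.952 in those 4 and 1.025 to 1.052 in F WT NX, so its place among other libraries depends on the scaling. F WT NX 1 had a sum of 10 disease-associated markers of 6780 CPM, above the 1380 to 2261 CPM of the other F WT NX libraries. M 5XFAD NX 4 and 5 also stood apart from the other 3 of their group: their counts lay on longer transcripts (count-weighted gene length of 4255 and 4284 bases against 3291 to 3405) and ribosomal protein genes took 2.77% and 2.63% of their counts against 5.07% to 5.25%. Member results that rest on the library labelled F 5XFAD NX 4 or on M 5XFAD NX 4 and 5 are given with and without them. No member was called in F WT NX vs F 5XFAD NX without F WT NX 1 either. In bulk RNA, fewer cells of a type and less RNA per cell cannot be told apart.

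Per length of transcript, the receptor subunit Tgfbr1 had the highest level of the 9 genes in WT NX microglia of both sexes. In females it was at 477 ± 57.1 FPKM (reads scaled for gene length and library total, mean ± SD, n = 4), and Tgfb1 followed at 215 ± 14.5 FPKM. Tgfbr2 was at 147 ± 15.3 FPKM and Nrros at 90.8 ± 10.9 FPKM. Lower levels were found for Skil (63.9 ± 3.82 FPKM), Smad3 (42.5 ± 3.89 FPKM), Smad7 (24.8 ± 3.26 FPKM) and Smad4 (14.9 ± 1.02 FPKM), and Smad2 was lowest at 6.81 ± 0.115 FPKM. Of the 2 receptor-activated Smads, Smad3 thus stood well above Smad2, and no neighbouring pair in this order had overlapping means ± SD. In males (n = 5) the order was Tgfbr1 (260 ± 22.6 FPKM), Tgfb1 (141 ± 18.5 FPKM), Tgfbr2 (85.6 ± 8.13 FPKM), Nrros (54.4 ± 3.67 FPKM) and Smad3 (28.7 ± 3.00 FPKM). The male levels of Skil (21.7 ± 3.05 FPKM) and Smad7 (21.3 ± 1.75 FPKM) lay within their spread of each other, as did those of Smad2 (12.4 ± 1.69 FPKM) and Smad4 (9.87 ± 1.27 FPKM). The 2 tables used different gene lengths, for Smad2 9443 bases in the female and 3549 in the male table, so FPKM levels were not set against each other between sexes. The female FPKM hold no further scaling, while the library totals behind the male FPKM were multiplied by 0.794 to 1.204, close to the male TMM factors of 0.783 to 1.197.

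**Figure D1:**
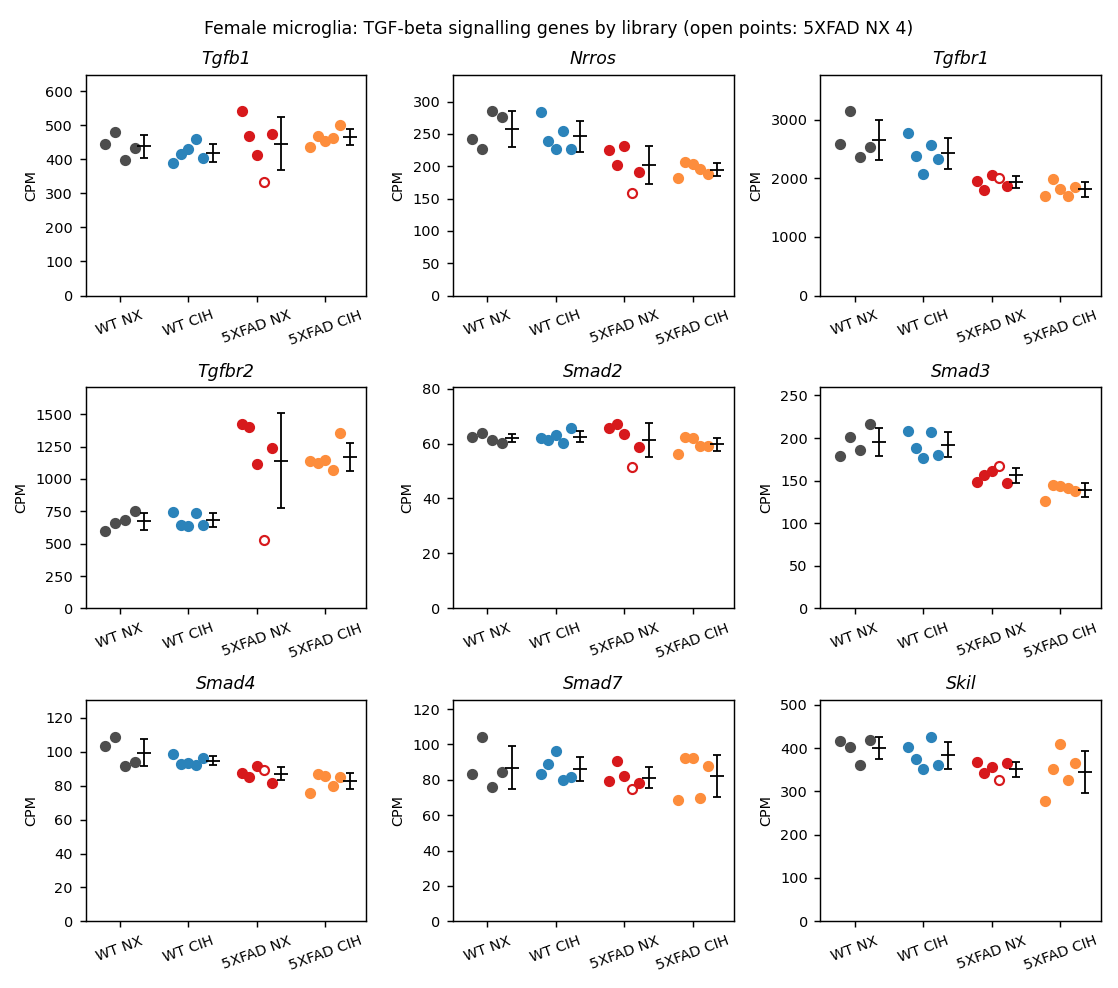
CPM of the 9 genes in each female library (y axis, 1 panel per gene) by group (x axis). Points are libraries, the black bar is the mean ± SD, and the open point is the library labelled F 5XFAD NX 4. Tgfbr2 lay at 1073 to 1352 CPM in 5XFAD CIH and at 640 to 744 CPM in WT CIH, and the open point lay at 527 CPM.

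The comparison of 5XFAD with WT asked how the pathway's genes differ in microglia of the amyloid model. In F WT CIH vs F 5XFAD CIH, edgeR's quasi-likelihood test called 5 of 9 members (Benjamini-Hochberg adjusted p below 0.05), against 51.9% of 14911 genes tested. Tgfbr2 was higher in 5XFAD, and Tgfbr1, Nrros, Smad3 and Smad4 were lower, against 26.2% of genes higher and 25.7% lower. In F WT NX vs F 5XFAD NX it called 0 of 9, against 13.9% of 14513 genes. Of the 9, 4 had an unadjusted p below 0.05 there, against 34.1% of genes, and DESeq2 called 4. Without the library labelled F 5XFAD NX 4, 5 members were called in this comparison, against 44.0% of genes, in the directions named for CIH. In M WT CIH vs M 5XFAD CIH, 7 of 9 were called, against 49.0% of 14793 genes: Tgfb1 and Tgfbr2 were higher (25.3% of genes) and Tgfbr1, Smad3, Smad4, Smad7 and Skil lower (23.7% of genes). In M WT NX vs M 5XFAD NX, 1 was called, Tgfbr2, which was higher (17.8% of 14834 genes called, 10.4% higher). Without M 5XFAD NX 4 and 5, 4 were called there, against 33.5% of genes. Scaled by library size alone, the split of calls moved to 1 higher and 7 lower in F CIH (59.7% of genes called), to 1 higher and 7 lower in M CIH (60.9%) and to 0 higher and 2 lower in M NX (21.9%). Calls of single members below are those with TMM scaling unless another setting is named. The median log2FC of the 9 was -0.16 in F NX, -0.15 in F CIH, -0.13 in M NX and -0.34 in M CIH, and that of all genes tested was -0.02, -0.02, 0.02 and -0.06. Scaling by library size put the all-gene median at -0.17, -0.21, -0.16 and -0.43. No member had an absolute log2FC above 1 with TMM scaling. Markers of other cells differed with genotype: the border macrophage sum was 144 to 336 CPM in female WT and 69.3 to 161 CPM in female 5XFAD libraries, and 148 to 327 CPM against 100 to 187 CPM in males. The astrocyte sum was 157 to 223 CPM in female WT and 124 to 647 CPM in female 5XFAD libraries, and 134 to 226 CPM against 217 to 992 CPM in males. Its markers went both ways: of 6 tested, 1, 3, 3 and 1 were called higher in F NX, F CIH, M NX and M CIH, and 1, 1, 1 and 2 lower. Gfap alone spanned 0.26 to 410 CPM over female and 0 to 738 CPM over male libraries. The endothelial sum was 61.2 to 161 CPM in F WT CIH and 173 to 270 CPM in F 5XFAD CIH, without overlap. Only 2 of its 8 markers had a positive log2FC there, both called higher. Of the others 1 was called lower, and the median log2FC of the list was -0.48, against the direction of the sum. The endothelial sum overlapped in the other 3 comparisons. Of 6 neutrophil markers, 3 were called lower under CIH in each sex. Of 5, 5, 6 and 6 oligodendrocyte markers tested in F NX, F CIH, M NX and M CIH, 0, 1, 3 and 2 were called higher and 1, 1, 0 and 0 lower. Of 10 markers of disease-associated microglia, 8, 10, 10 and 10 were called higher and 0 lower. The part of these cells in the results was not tested.

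Transcript length and ribosomal protein share, which can follow RNA quality and library composition, also differed with genotype. Under CIH the count-weighted gene length was 3158 to 3278 bases in F WT and 2720 to 3013 in F 5XFAD, and 4356 to 4534 in M WT and 3106 to 3823 in M 5XFAD. Ribosomal protein genes took 1.23% to 1.51% of counts in F WT CIH and 2.14% to 3.49% in F 5XFAD CIH, and 1.52% to 1.67% in M WT CIH and 3.89% to 6.17% in M 5XFAD CIH. None of these pairs overlapped. Under NX the groups overlapped in both measures and both sexes, with lengths of 3092 to 3319 bases in F WT, 2813 to 3326 in F 5XFAD, 3699 to 4079 in M WT and 3291 to 4284 in M 5XFAD. That overlap came from the libraries that stood apart. Without the library labelled F 5XFAD NX 4, F 5XFAD NX was at 2813 to 3023 bases and 2.18% to 2.93%, against 1.18% to 1.65% in F WT NX. Without libraries 4 and 5, M 5XFAD NX was at 3291 to 3405 bases and 5.07% to 5.25%, against 2.20% to 3.03% in M WT NX, so that both measures were then apart in both sexes. With the trend on gene length removed, the 5 members of F CIH remained called and Tgfb1 joined them (53.3% of genes called), and the 7 of M CIH remained called (48.1%), in unchanged directions. The part of the ribosomal share was not tested.

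Tgfbr2, the type II receptor that binds the ligand first, lay higher in 5XFAD microglia and was called in 3 of the 4 comparisons. In females it was at 597, 657, 682 and 749 CPM in WT NX and at 1423, 1405, 1116, 527 and 1238 CPM in 5XFAD NX. The value of 527 CPM belonged to the library labelled F 5XFAD NX 4 and, with TMM scaling, was below all WT NX libraries, while the other 4 were above all of them. The log2FC was 0.77 ± 0.23 (SE, adjusted p = 0.0504), and without that library it was 0.93 ± 0.11 (adjusted p = 0.000131). Under CIH Tgfbr2 was at 744, 641, 640, 738 and 641 CPM in F WT and at 1142, 1123, 1143, 1073 and 1352 CPM in F 5XFAD. These groups did not overlap, and the log2FC was 0.78 ± 0.07 (adjusted p = 9.48e-07). In males Tgfbr2 was at 766, 725, 757, 642 and 639 CPM in WT NX and at 913, 850, 914, 1240 and 1053 CPM in 5XFAD NX. These did not overlap, as held for this member alone and for 16.0% of genes. The log2FC was 0.51 ± 0.12 (adjusted p = 0.0130), and it was 0.35 ± 0.09 (adjusted p = 0.0103) without M 5XFAD NX 4 and 5, which held the highest values. With scaling by library size it was 0.33 (adjusted p = 0.156), and with the replicate number of the libraries fitted as a block Tgfbr2 was not called. Under CIH the males were at 649, 847, 602, 656 and 572 CPM in WT and at 1035, 1100, 1032, 902 and 974 CPM in 5XFAD. The lowest 5XFAD library lay just above the highest WT library, and the log2FC was 0.64 ± 0.11 (adjusted p = 0.000293). With scaling by library size alone this value was 0.27 (adjusted p = 0.0563), on a scale on which the median of all genes was -0.43, and the male libraries then overlapped under both treatments.

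Tgfbr1, the type I receptor kinase that phosphorylates Smad2 and Smad3, lay lower in 5XFAD and was called under CIH in both sexes. In females it was at 2580, 3141, 2362 and 2541 CPM in WT NX and at 1945, 1796, 2050, 2001 and 1871 CPM in 5XFAD NX. The groups did not overlap, as held for 3 members (Tgfbr1, Smad3 and Smad4) and 14.8% of all genes in this comparison. Scaled by library size alone, these 3 overlapped through the library labelled F 5XFAD NX 4, and Nrros was the 1 member that did not (11.1% of genes). The log2FC was -0.42 ± 0.13 (adjusted p = 0.0597), and -0.48 ± 0.11 (adjusted p = 0.00476) without the library labelled F 5XFAD NX 4. Under CIH Tgfbr1 was at 2765, 2384, 2073, 2565 and 2334 CPM in F WT and at 1705, 1993, 1820, 1689 and 1848 CPM in F 5XFAD, with a log2FC of -0.42 ± 0.07 (adjusted p = 0.000253). Here the 5 members called were also the 5 whose libraries did not overlap, against 36.9% of all genes. In males under NX the 5XFAD libraries split: WT was at 1865, 1763, 1712, 1729 and 1491 CPM, and 5XFAD at 1032, 1023, 965, 1830 and 1778 CPM. The 2 high values are those of M 5XFAD NX 4 and 5. The log2FC was -0.36 ± 0.19 (adjusted p = 0.243) over all libraries and -0.75 ± 0.10 (adjusted p = 2.95e-05) without these 2. Under CIH Tgfbr1 was at 1873, 2252, 2561, 2354 and 2292 CPM in M WT and at 1461, 1583, 1188, 1240 and 1101 CPM in M 5XFAD. These did not overlap (4 members, Tgfbr1, Tgfbr2, Smad3 and Skil, against 36.2% of genes), and the log2FC was -0.75 ± 0.12 (adjusted p = 0.000143).

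**Figure D2:**
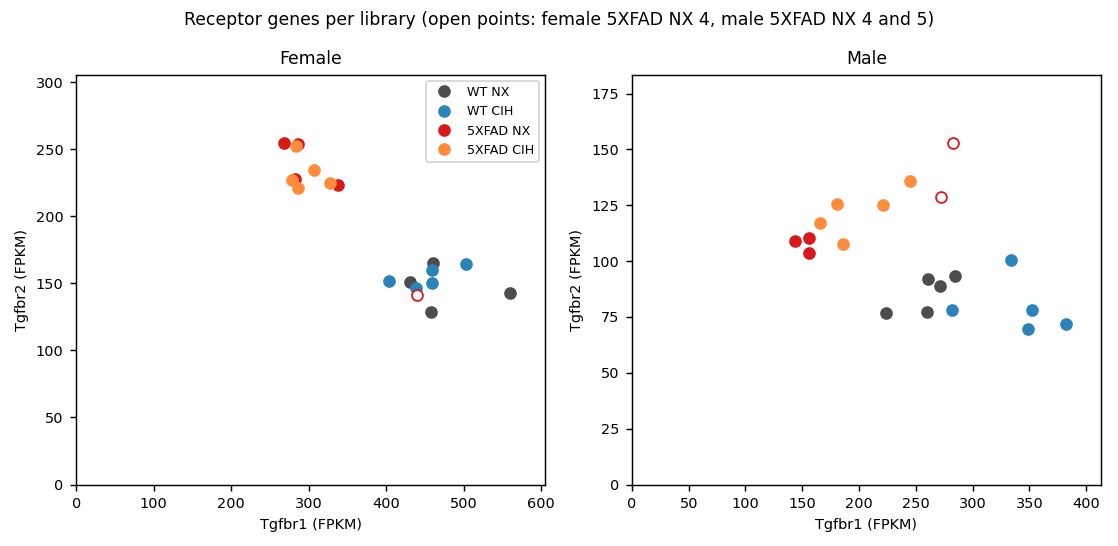
Tgfbr2 (y axis, FPKM) against Tgfbr1 (x axis, FPKM), 1 point per library, in females (left) and males (right), coloured by group. Open points are the library labelled F 5XFAD NX 4, which lies at 440 FPKM of Tgfbr1 and 141 FPKM of Tgfbr2 among the WT libraries, and M 5XFAD NX 4 and 5, which lie to the right of the other 5XFAD males.

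The balance of the 2 receptor messages, computed after their values were seen, does not depend on the scaling of a library. The ratio of Tgfbr2 to Tgfbr1 in FPKM was 0.311 ± 0.0515 (SD, n = 4) in F WT NX and 0.343 ± 0.0206 (n = 5) in F WT CIH. It was 0.725 ± 0.251 in F 5XFAD NX, with 0.320 in library 4 and 0.662 to 0.951 in the others, and 0.785 ± 0.0747 in F 5XFAD CIH. For male WT (n = 5) it was 0.330 ± 0.0211 under NX and 0.237 ± 0.0491 under CIH, and for male 5XFAD 0.628 ± 0.118 under NX and 0.620 ± 0.0734 under CIH. Apart from F 5XFAD NX 4, every 5XFAD library had a higher ratio than every WT library of its sex. M 5XFAD NX 4 and 5 were at 0.541 and 0.473, above the highest male WT library at 0.353.

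The promoters of the 2 receptor genes are shown because their messages moved in opposite directions. RefSeq sequence of GRCm38.p6 covered 250 bases before to 50 bases after a start, and 5 of the 9 members had an entry. Tgfbr2 lies on chromosome 9 (116084293 to 116175360, minus strand) and Tgfbr1 on chromosome 4 (47353222 to 47414931, plus strand). The windows are chr9:116175314-116175613 on the minus strand for Tgfbr2, and on the plus strand chr4:47352972-47353271 and chr4:47385966-47386265 for the 2 annotated starts of Tgfbr1. Capitals mark the motifs searched on both strands, the Smad box CAGAC and the PU.1 core GAGGAA; the hypoxia response core ACGTG was also searched. PU.1 is a lineage factor of microglia, and hypoxia-inducible factors bind the hypoxia response core.
Tgfbr2: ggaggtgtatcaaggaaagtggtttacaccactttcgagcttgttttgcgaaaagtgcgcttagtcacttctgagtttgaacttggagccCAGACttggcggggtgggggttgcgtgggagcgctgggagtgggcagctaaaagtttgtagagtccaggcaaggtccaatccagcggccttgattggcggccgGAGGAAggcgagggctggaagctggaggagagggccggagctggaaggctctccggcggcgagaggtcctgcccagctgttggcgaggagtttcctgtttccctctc
Tgfbr1 start 1: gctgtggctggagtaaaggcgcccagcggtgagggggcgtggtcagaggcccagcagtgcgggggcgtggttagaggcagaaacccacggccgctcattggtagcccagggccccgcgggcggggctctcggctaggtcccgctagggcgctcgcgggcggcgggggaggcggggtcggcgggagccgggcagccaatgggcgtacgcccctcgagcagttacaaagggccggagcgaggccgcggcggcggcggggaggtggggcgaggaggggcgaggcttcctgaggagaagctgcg
Tgfbr1 start 2: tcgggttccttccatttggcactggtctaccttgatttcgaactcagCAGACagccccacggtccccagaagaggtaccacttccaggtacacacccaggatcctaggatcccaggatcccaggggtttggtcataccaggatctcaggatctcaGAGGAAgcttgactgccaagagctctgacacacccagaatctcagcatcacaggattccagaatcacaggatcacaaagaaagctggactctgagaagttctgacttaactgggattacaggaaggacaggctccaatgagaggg
Tgfbr2 held CAGAC at -160 and GAGGAA at -57 from the start. Tgfbr1 held neither at the first start, which is rich in G and C (74.7%), and held CAGAC at -203 and GAGGAA at -95 at the second (52% G and C). ACGTG was in 0 of the 6 member windows and in 19.6% of 32851 mouse promoters of the same length. CAGAC was in 3 of the 6 windows and 49.6% of promoters, and GAGGAA in 2 of the 6 and 28.3%. A match of letters is a description and not a bound site.

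Tgfb1, the ligand, was lower in M WT CIH than in M WT NX and in M 5XFAD CIH. In males Tgfb1 was at 585, 693, 725, 859 and 712 CPM in WT NX and at 550, 483, 470, 423 and 419 CPM in WT CIH. The groups did not overlap, and the log2FC was -0.62 ± 0.10 (adjusted p = 0.000675). M 5XFAD CIH was at 607, 545, 745, 792 and 1060 CPM, with 1 library below the highest of WT CIH. The log2FC of M WT CIH vs M 5XFAD CIH was 0.71 ± 0.15 (adjusted p = 0.00166), and 0.32 (adjusted p = 0.0354) with scaling by library size. M 5XFAD NX was the most spread group, at 936, 717, 863, 411 and 342 CPM, and the 2 low values were libraries 4 and 5. In females the groups overlapped throughout: WT libraries ranged from 397 to 478 CPM under NX and from 389 to 458 CPM under CIH, and 5XFAD libraries from 334 to 540 CPM and from 435 to 500 CPM. No female comparison of Tgfb1 was called by the quasi-likelihood test, while with the length trend removed F CIH was (0.17, adjusted p = 0.0339).

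Nrros, which anchors latent TGF-beta1 on the microglial surface, was lower in female 5XFAD microglia. It was at 285, 239, 227, 254 and 226 CPM in F WT CIH and at 182, 206, 204, 195 and 188 CPM in F 5XFAD CIH, without overlap. The log2FC was -0.33 ± 0.06 (adjusted p = 0.000620), and -0.52 with scaling by library size. Under NX it was at 242, 226, 285 and 276 CPM in F WT and at 225, 203, 232, 159 and 191 CPM in F 5XFAD, where 1 library lay above the lowest WT library. That log2FC was -0.33 ± 0.11 (adjusted p = 0.0646), and -0.29 ± 0.10 (adjusted p = 0.0344) without the library labelled F 5XFAD NX 4. That library was the lowest with TMM scaling, and its place depends on the scaling. In males WT libraries ranged from 215 to 251 CPM of Nrros under NX and from 130 to 280 CPM under CIH, and 5XFAD libraries from 163 to 224 CPM and from 175 to 211 CPM. With TMM scaling it was called in no male comparison, and with library size scaling it was called lower in 5XFAD under NX (-0.46, adjusted p = 0.0169) and CIH (-0.43, adjusted p = 0.0259).

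**Figure D3:**
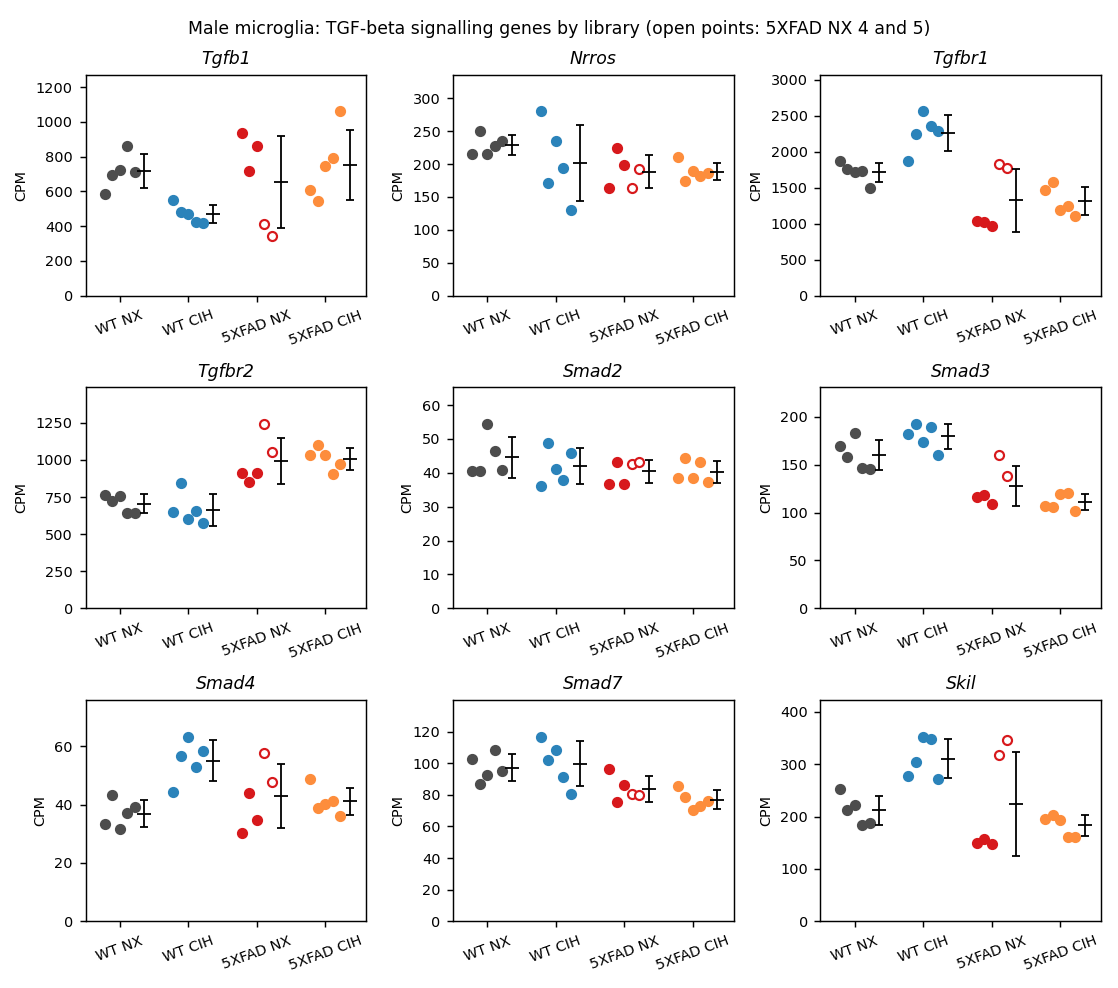
CPM of the 9 genes in each male library (y axis, 1 panel per gene) by group (x axis). Points are libraries, the black bar is the mean ± SD, and open points are M 5XFAD NX 4 and 5. These 2 were at 1830 and 1778 CPM of Tgfbr1 against 965 to 1032 CPM in the other 3 of the group, and Tgfb1 was at 419 to 550 CPM in WT CIH against 585 to 859 CPM in WT NX.

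Smad3, a receptor-activated Smad that binds DNA, lay lower in 5XFAD and was called under CIH in both sexes. In females under CIH it was at 208, 189, 177, 207 and 180 CPM in WT and at 126, 145, 144, 141 and 138 CPM in 5XFAD, with a log2FC of -0.46 ± 0.06 (adjusted p = 1.55e-05). Under NX it was at 178, 201, 186 and 216 CPM in F WT and at 148, 157, 161, 168 and 147 CPM in F 5XFAD. Neither pair of groups overlapped. The NX log2FC was -0.29 ± 0.10 (adjusted p = 0.0774), and -0.36 ± 0.08 (adjusted p = 0.00393) without the library labelled F 5XFAD NX 4, the highest of its group. In males under CIH Smad3 was at 182, 192, 173, 189 and 160 CPM in WT and at 107, 106, 119, 120 and 102 CPM in 5XFAD. The log2FC was -0.66 ± 0.09 (adjusted p = 2.40e-05), and -1.03 with scaling by library size. Male NX values were 169, 158, 183, 146 and 146 CPM in WT and 116, 118, 109, 160 and 138 CPM in 5XFAD, which overlapped through library 4. That log2FC was -0.31 ± 0.13 (adjusted p = 0.119) over all libraries and -0.48 ± 0.10 (adjusted p = 0.00194) without libraries 4 and 5.

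Smad2, the other receptor-activated Smad, was called in no comparison with TMM scaling. With library size scaling it was called lower in 5XFAD under CIH, at -0.26 in females (adjusted p = 0.00277) and -0.40 in males (adjusted p = 0.0152). In females its range over all 4 groups was 51.6 to 67.0 CPM, and in males 36.0 to 54.3 CPM, and the groups overlapped in each comparison (with scaling by library size alone, not in F WT CIH vs F 5XFAD CIH, as for 44.9% of genes). The interval of 2 SE either side of its log2FC was -0.13 to 0.14 in F WT NX vs F 5XFAD NX and -0.17 to 0.03 in F WT CIH vs F 5XFAD CIH. In males it was -0.37 to 0.12 under NX and -0.24 to 0.19 under CIH.

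Smad4, the common partner of the receptor-activated Smads, was lower in female 5XFAD and followed another order in males. In F WT CIH it was at 98.9, 92.8, 93.6, 92.3 and 96.6 CPM and in F 5XFAD CIH at 76.0, 86.9, 85.5, 80.1 and 85.2 CPM, a log2FC of -0.20 ± 0.05 (adjusted p = 0.00387). It was -0.39 with scaling by library size, and with no filter on low counts the adjusted p was 0.0591. In F WT NX it was at 103, 109, 91.9 and 94.0 CPM and in F 5XFAD NX at 87.7, 85.1, 91.8, 89.1 and 81.7 CPM, where the closest libraries differed by less than 1 CPM. The NX log2FC was -0.16 ± 0.08 (adjusted p = 0.205), and -0.21 ± 0.07 (adjusted p = 0.0351) without the library labelled F 5XFAD NX 4. In males Smad4 was at 33.5, 43.3, 31.6, 37.1 and 39.1 CPM in WT NX and at 44.4, 56.7, 63.2, 53.0 and 58.5 CPM in WT CIH, without overlap. The log2FC of 0.57 ± 0.11 (adjusted p = 0.00192) was positive, so the level was higher under CIH. M 5XFAD CIH, at 48.9, 38.9, 40.3, 41.3 and 36.3 CPM, was below M WT CIH with 1 library inside its range (log2FC -0.39 ± 0.11, adjusted p = 0.0101). Scaled by library size alone, these 2 groups did not overlap and the log2FC was -0.77. M 5XFAD NX ranged from 30.2 to 57.8 CPM, and libraries 4 and 5 were its highest.

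Skil, a repressor of Smad complexes that is itself induced by TGF-beta, changed in males. It was at 253, 212, 223, 184 and 187 CPM in M WT NX and at 277, 304, 352, 347 and 272 CPM in M WT CIH, with no overlap and a log2FC of 0.54 ± 0.11 (adjusted p = 0.00186). M 5XFAD CIH was at 195, 203, 194, 161 and 161 CPM, below all M WT CIH libraries (log2FC -0.73 ± 0.11, adjusted p = 8.14e-05). That value was -1.10 with scaling by library size and -0.48 with the length trend removed. M 5XFAD NX again fell into 3 low libraries, at 150, 158 and 148 CPM, and libraries 4 and 5 at 318 and 346 CPM. Without these 2 the log2FC of M WT NX vs M 5XFAD NX was -0.47 ± 0.11 (adjusted p = 0.00510), and with them Skil was not called. Smad7, which blocks the receptors and is also a TGF-beta target, was at 117, 102, 108, 91.0 and 80.6 CPM in M WT CIH and at 85.8, 78.8, 70.5, 72.9 and 76.4 CPM in M 5XFAD CIH. These overlapped by 1 library on either side, and the log2FC was -0.34 ± 0.11 (adjusted p = 0.0165). By library size alone this value was -0.71, and Smad7 did not overlap between male genotypes under either treatment, nor did Nrros under NX, against 19.0% of genes under NX and 45.9% under CIH. In females Skil lay at 277 to 425 CPM and Smad7 at 68.6 to 104 CPM over all groups, and neither was called with TMM scaling. With library size scaling both were called lower in F 5XFAD CIH, Skil at -0.34 (adjusted p = 0.00579) and Smad7 at -0.26 (adjusted p = 0.0398).

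The comparison of CIH with NX asked whether intermittent hypoxia changes these genes within a genotype. In M WT NX vs M WT CIH, 4 of 9 were called and the same 4 did not overlap, against 28.6% of 14983 genes called and 17.2% not overlapping. Tgfbr1 (log2FC 0.39 ± 0.09, adjusted p = 0.00520), Smad4 and Skil were higher in CIH (13.6% of genes) and Tgfb1 was lower (15.0% of genes). The median log2FC of the 9 was 0.02 and that of all genes -0.01. When the 4 male groups shared 1 estimate of spread, 0 members and 0 of all genes were called, with an adjusted p of 0.0832 for Tgfb1, 0.0568 for Smad4, 0.0929 for Skil and 0.125 for Tgfbr1. The count-weighted gene length was 3699 to 4079 bases in M WT NX and 4356 to 4534 in M WT CIH, and ribosomal protein genes took 2.20% to 3.03% and 1.52% to 1.67% of counts. With the trend on gene length removed, the 4 remained called at -0.67 for Tgfb1, 0.26 for Tgfbr1, 0.62 for Smad4 and 0.31 for Skil, and Tgfbr2 joined them at -0.29 (adjusted p = 0.0385), against 18.5% of genes. Marker sums moved as well. The neutrophil sum was 229 to 1214 CPM in M WT NX and 108 to 319 in M WT CIH (6 of 6 markers called lower), the microglial sum 38472 to 41184 and 30923 to 36177 CPM (6 of 10 lower), and the disease-associated sum 1629 to 3406 and 1455 to 1614 CPM (5 of 10 lower). The microglial and disease-associated sums did not overlap. Of 7 border macrophage markers 3 were called lower, with sums of 227 to 327 CPM in M WT NX and 148 to 322 in M WT CIH. Astrocyte markers went the other way, with 5 of 5 positive, 1 called higher, and sums of 134 to 183 and 156 to 226 CPM. The part of these lists in the result was not tested. Because this comparison and that of genotype under CIH share the M WT CIH libraries, their values for Tgfb1, Tgfbr1, Smad4 and Skil are not independent.

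In the other 3 comparisons of treatment no member was called. F WT NX vs F WT CIH gave 0 calls among the 9 and among all genes by edgeR's quasi-likelihood test (0% called), with 0 of 9 members and 3.87% of genes at an unadjusted p below 0.05, and no member without overlap (0.987% of genes). The members' log2FC lay between -0.10 and 0.05. F 5XFAD NX vs F 5XFAD CIH likewise gave 0% called and 3.22% of genes at an unadjusted p below 0.05. Smad3 was the 1 member whose libraries did not overlap there (0.590% of genes), at 147 to 168 CPM in NX and 126 to 145 CPM in CIH. They overlapped with scaling by library size alone. Its log2FC was -0.17 (unadjusted p = 0.0641, adjusted p = 0.998). M 5XFAD NX vs M 5XFAD CIH gave 0 called members and 0% of genes, with 3.30% of genes at an unadjusted p below 0.05 and 0.788% without overlap. Its members lay between -0.29 and 0.19, and leaving out libraries 4 and 5 gave no call either.

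The interaction of genotype and treatment tests whether the difference of 5XFAD from WT under CIH is another than under NX. In females 0 members and 0% of 15582 genes were called, and 3.78% of genes had an unadjusted p below 0.05. In males 0 members and 0% of 15813 genes were called as well, while 24.4% of genes had an unadjusted p below 0.05. Among the 9 this held for Tgfb1 (0.81 ± 0.31, unadjusted p = 0.0171, adjusted p = 0.139), Skil (-0.83 ± 0.28, adjusted p = 0.122), Smad4 (-0.63 ± 0.21, adjusted p = 0.121) and Smad3 (-0.36 ± 0.15, adjusted p = 0.154). These differences rest in part on M 5XFAD NX 4 and 5. Without them the values were 0.45 for Tgfb1, -0.28 for Skil, -0.40 for Smad4 and -0.20 for Smad3, with adjusted p of 0.472 to 0.619. The interval of 2 SE for Tgfbr2 was -0.48 to 0.46 in females and -0.21 to 0.45 in males.

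Other genes of the pathway were taken from 5 lists: ligands and their activation, receptors and co-receptors, other Smads with partners and regulators, Smad-response genes, and microglial genes known to depend on TGF-beta. Pmepa1 and Tgif1 stand in 2 of them. The share of all genes called higher and lower, against which the counts below are to be read, was 7.26% and 6.61% in F NX, 26.2% and 25.7% in F CIH, 10.4% and 7.37% in M NX, and 25.3% and 23.7% in M CIH. Bambi, a pseudoreceptor that lacks a kinase domain and dampens TGF-beta signalling, rose from 2.22 to 12.7 CPM in female NX (log2FC 2.50, adjusted p = 0.0208), from 1.88 to 13.5 in female CIH (2.85, adjusted p = 6.48e-08), from 1.89 to 15.1 in male NX (3.01, adjusted p = 9.11e-06) and from 1.67 to 18.3 in male CIH (3.48, adjusted p = 1.79e-08). Eng (endoglin, a co-receptor) was lower in 5XFAD in the same 4 comparisons, by log2FC of -0.55, -0.81, -0.77 (-0.49 without M 5XFAD NX 4 and 5) and -0.28, though with library size scaling its adjusted p in F NX was 0.0790. Endothelial cells also express Eng, and their part in its values was not tested. Acvr2b, an activin receptor, fell in 5XFAD under CIH in both sexes (-1.21 and -1.25). Of 10 receptor genes tested, 1 was higher and 2 lower in F NX, 3 and 4 in F CIH, 1 and 2 in M NX, and 2 and 4 in M CIH. Their median log2FC was -0.17, -0.22, -0.15 and -0.18.

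Smad-response genes lay in both directions, with a median above that of all genes. Of 12 tested, 7, 7, 8 and 8 had a positive log2FC in F NX, F CIH, M NX and M CIH. Of all genes tested this held for 6936 of 14513, 7215 of 14911, 7738 of 14834 and 6872 of 14793. By the test, 2 were higher and 1 lower in F NX, 6 and 2 in F CIH, 5 and 2 in M NX, and 7 and 1 in M CIH, with a median log2FC of 0.62, 0.43, 0.51 and 0.55. With library size scaling the median was 0.45, 0.23, 0.30 and 0.17. Bhlhe40, a transcription factor, rose from 5.49 to 99.8 CPM in female CIH (log2FC 4.18), from 3.88 to 87.1 in male NX (4.51) and from 3.97 to 84.4 in male CIH (4.44). In female NX its log2FC was 2.96 with an adjusted p of 0.0570. Cdkn1a, a cell cycle inhibitor, rose in males (1.36 under NX and 1.90 under CIH). Others were lower: Pmepa1, a negative regulator that TGF-beta induces, was lower in F NX (-0.61), F CIH (-0.70) and M NX (-0.67). It was not called lower in M CIH, where Klf10 (-1.39) was the 1 gene of the list called lower. Junb of this list and Jun of the microglial list also belong to the genes that cell dissociation induces. The dissociation marker sum was 1625 to 3594 CPM in F WT NX and 2741 to 4000 in F 5XFAD NX, but 1485 to 2091 in M WT NX and 1020 to 1553 in M 5XFAD NX. Under CIH it was 1710 to 4612 CPM in F WT and 1444 to 3671 in F 5XFAD, and 1316 to 2351 in M WT and 1601 to 3403 in M 5XFAD. Of its 10 genes, 2, 2, 1 and 4 were called higher in F NX, F CIH, M NX and M CIH and 0, 0, 4 and 0 lower, and its part in these values was not tested.

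Most microglial genes known to depend on TGF-beta had a negative log2FC in 5XFAD, with 6, 6, 5 and 7 of 21 positive in F NX, F CIH, M NX and M CIH. The counts of all genes with a positive log2FC are those given above for the Smad-response genes. Of 21 tested, 0 were higher and 7 lower in F NX, 3 and 14 in F CIH, 0 and 11 in M NX, and 4 and 10 in M CIH. The median log2FC was -0.21, -0.28, -0.32 and -0.36. Tmem119, a microglial membrane protein, went from 2781 to 1320 CPM in F NX (log2FC -1.03), and its log2FC was -1.22 in F CIH and -1.26 in M NX. P2ry12, the purinergic receptor of homeostatic microglia, had log2FC of -0.85, -1.07, -1.22 and -1.03 in F NX, F CIH, M NX and M CIH. Sall1, a transcription factor of microglial identity, was at -1.11 in M CIH. Genes of this list that rose included Gas6, a ligand of Axl and Mertk (0.43 in F CIH and 0.62 in M CIH), and Cst3, a secreted protease inhibitor (0.91 in M CIH). Gas6 was at 0.23 and 0.24 and Cst3 at 0.52 with library size scaling, and Cst3 was at 0.42 with the length trend removed. Of the 21, 6 also belong to the microglial marker list used to check the cells.

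**Figure D4:**
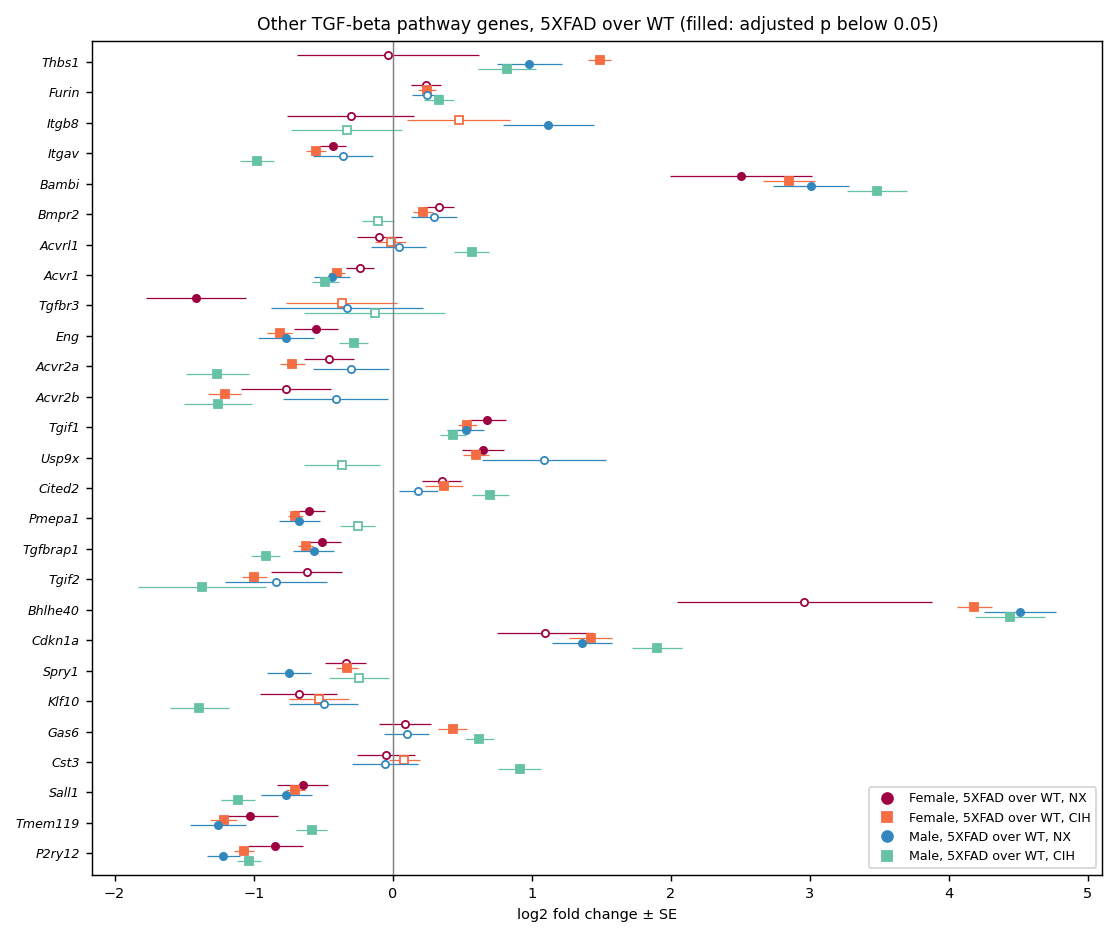
log2FC ± SE (x axis) of the genes of the 5 pathway lists that the rule for named genes selected and that are reported here (y axis), in the 4 comparisons of 5XFAD with WT (colours and symbols). Filled points have an adjusted p below 0.05. Bhlhe40 (up to 4.51 in M WT NX vs M 5XFAD NX) and Bambi (up to 3.48 in M WT CIH vs M 5XFAD CIH) lie farthest to the right, and Tmem119 and P2ry12 lie left of 0 in all 4.

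Ligand and regulator genes were called in both directions. Of the ligand and activation genes, 0 were higher and 1 lower of 9 tested in F NX, 2 and 1 of 10 in F CIH, 2 and 0 of 11 in M NX, and 2 and 1 of 9 in M CIH. Thbs1 (thrombospondin 1, an activator of latent TGF-beta) rose by log2FC of 1.49 in F CIH, 0.98 in M NX (0.64 without M 5XFAD NX 4 and 5) and 0.82 in M CIH, where it was at 0.46 (adjusted p = 0.0982) with library size scaling. Itgav, the integrin alpha V chain that binds latent TGF-beta, fell in F NX (-0.43, with an adjusted p of 0.0503 by library size scaling), F CIH (-0.55) and M CIH (-0.98). Furin, the protease that cleaves the precursor, was higher in F CIH (0.25) and M CIH (0.33). Scaled by library size alone it was at 0.050 (adjusted p = 0.560) in F CIH, and the M CIH value turned to -0.031. With the length trend removed it was 0.29 in F CIH and 0.57 in M CIH. Of 22 other Smads, partners and regulators, 2 were higher and 5 lower in F NX, 5 and 9 in F CIH, 1 and 4 in M NX, and 3 and 9 in M CIH. Tgif1, a nuclear corepressor of Smads, rose by log2FC of 0.68, 0.53, 0.52 and 0.43. With library size scaling it was at 0.34 in F CIH and lost both male calls, at 0.32 (adjusted p = 0.109) in M NX and 0.053 (adjusted p = 0.660) in M CIH. Tgif2, a related corepressor, fell under CIH in both sexes (log2FC -0.99 in females and -1.37 in males), and the male value was not called without M WT CIH 2 (adjusted p = 0.0535) or M 5XFAD CIH 4 (adjusted p = 0.0615). Tgfbrap1, which binds the receptors, had log2FC of -0.51, -0.63, -0.57 and -0.91, with an adjusted p of 0.0732 in F NX by library size scaling. Usp9x, a deubiquitinase of Smad4, rose in both female comparisons (0.65 and 0.60), with an adjusted p of 0.0526 in F NX once the length trend was removed.

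The 4 comparisons of 5XFAD with WT share no library. Of 71 other pathway genes tested in all 4, 3 were called higher in each, Bambi and Tgif1 among them, and 10 lower in each (Cx3cr1, Eng, P2ry12, P2ry13, Sall1, Siglech, Slc2a5, Smad1, Tgfbrap1 and Tmem119), all with TMM scaling. Of the 10, Cx3cr1, P2ry12, P2ry13, Sall1, Siglech, Slc2a5 and Tmem119 come from the list of microglial genes that depend on TGF-beta. Only Eng, Smad1 and Tgfbrap1 come from the lists of signalling parts. With library size scaling Tgif1, Eng and Tgfbrap1 were not called in all 4. Over all 12607 genes 4.89% were called higher and 2.78% lower in each. None of the 9 members was called in all 4, and Tgfbr2, called in 3, was at an adjusted p of 0.0504 in the fourth. Smad1, which carries signals of bone morphogenetic proteins and is named here after its calls were seen, had log2FC of -0.50, -0.61, -0.57 and -0.83.

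Without the library labelled F 5XFAD NX 4, the F NX counts became 1 higher and 1 lower of 8 ligand genes, 3 and 5 of 10 receptors, 5 and 8 of 22 regulators, 7 and 2 of 12 response genes, and 1 and 10 of 21 microglial genes, while 44.0% of all genes were then called. Without M 5XFAD NX 4 and 5, the M NX counts were 2 and 1 of 10, 1 and 4 of 10, 2 and 8 of 22, 5 and 2 of 12, and 2 and 13 of 21, with 33.5% of all genes called. The F NX calls of named list genes held without the library labelled F 5XFAD NX 4, but each of them was lost when at least 1 of the other 8 libraries was left out, with adjusted p of up to 0.111 (Eng). Itgb8, a beta integrin that frees TGF-beta, rose in M NX over all libraries (log2FC 1.12, adjusted p = 0.0314, or 0.0699 with library size scaling) and was at 0.69 with an adjusted p of 0.208 without these 2.

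In M WT NX vs M WT CIH, with 13.6% of all genes higher and 15.0% lower, the receptors and regulators lay in both directions. Of 10 receptors 4 were higher and 2 lower in CIH, among them Acvr2b (0.88) and Acvr2a (0.71), both activin receptors, against Acvrl1 (-0.50) and Eng (-0.41). Of 22 regulators 8 were higher, with Usp9x (1.05) and Smad5 (0.55) first, and 2 were lower, Tab1 (-0.41) and Pmepa1 (-0.37). Of 10 ligand genes 1 was called, Itgav (0.44), and of 11 response genes 1, Pmepa1. Of 21 microglial genes 2 were higher, Golm1 (0.51) and Mertk (0.36), and 9 lower, with Cst3 (-0.72) and Slc2a5 (-0.60) first. With the length trend removed (18.5% of genes called), receptors had 2 higher and 2 lower, regulators 4 and 2, ligand genes 0 and 1, response genes 0 and 1, and microglial genes 2 and 7. Itgav was then at 0.18 (adjusted p = 0.179), Tab1 at -0.32 (adjusted p = 0.104), Usp9x at 0.69 and Cst3 at -0.37. The adjusted p of Tab1 was 0.0837 with library size scaling. When all 4 male groups shared 1 estimate of spread, none of these genes was called. In the other treatment comparisons the lists held 0 calls, as did all genes.

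Across libraries, the members varied together in part. Over the 19 female and 20 male libraries, which share groups and scaling, Tgfbr1 correlated with Smad3 (Pearson r of log2 CPM 0.902 and 0.831) and Skil (0.690 and 0.891). Tgfb1 and Skil were opposed in males (r = -0.905) and not in females (0.157), and Tgfbr2 ran against Smad3 in both (-0.742 and -0.596). The genes most like a member over 13443 genes, ranked by the lower of the r of the 2 sexes, were Pik3r1 (0.959), Ufl1 (0.942) and Ythdf3 (0.937) for Tgfbr1. For Tgfbr2 they included Ptpra (0.945) and Plekhh2 (0.937), and for Smad3 Mfap3 (0.950) and Tgfbrap1 (0.947). Tgfb1 was most like Atf6b (0.884), Por (0.878) and Csnk1g2 (0.873). Skil was most like Slc25a36 (0.861), Dennd4a (0.856) and Map3k7 (0.853), the kinase TAK1 of the regulator list. Likeness was lower for Smad4 (Ireb2 0.816, Resf1 0.813, Rb1cc1 0.807) and Nrros (Tor4a 0.785, Itpk1 0.719, Irf2bp2 0.713). It was lowest for Smad7 (Prex1 0.652, Prr12 0.645, Pcnx3 0.636) and Smad2 (Etfdh 0.601, Rap1gds1 0.597, Pafah1b2 0.590).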

How the data were processed

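Reads of the bulk mRNA libraries (Illumina NovaSeq, paired-end) were aligned by the authors to GRCm38/mm10, and the submitters' processing notes name HISAT2. The authors deposited gene counts as whole numbers without normalization, in a female and a male table. The deposited FPKM values are these counts per gene length and library total by the authors, and in the male table each library's total carries a further factor whose origin is not given in the sources used here. Counts were the basis of every test, and FPKM served only to compare levels between genes, for the receptor ratio and as an alternative.

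The members and gene lists were chosen with earlier results of these data known. Each pair of groups was tested on its own in R 4.3.3 with edgeR 4.0.16 (TMM factors, glmQLFit and glmQLFTest, two-sided) keeping a gene if 3 or more of the compared libraries had a CPM above 1, and p was adjusted over all genes tested (Benjamini-Hochberg). A gene was called at an adjusted p below 0.05. The methods of the study name edgeR and this filter, with a log2FC limit of 1 for DEGs, which was an alternative here. The sign of a log2FC is that of the second group named minus the first, and the SE is the log2FC over the root of the F statistic. The interaction was fitted over the 4 groups of a sex. CPM values printed per library were scaled with TMM factors over all libraries of a sex. For the female table, gene lengths were recovered by dividing counts by FPKM and library totals. The labels number the libraries, and the methods call them independent samples, but nothing ties a library to 1 animal, so p measures the spread between libraries. Duplicates were looked for in 76 pairs of libraries of the same group, and the lowest chi-square over its degrees of freedom was 4.591, so every library counts once.

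Genes of the pathway lists were named by a rule: in each comparison, at most the 2 largest rises and the 2 largest falls of each list at an adjusted p below 0.05, and for each member the 3 genes of highest likeness. Genes called in all 4 comparisons of genotype are named in addition, after their values were seen. Some genes that these rules select are not reported here, though they stay in the counts. Alternatives were DESeq2 1.42.0, edgeR's likelihood ratio test, scaling by library size, other filters and limits, 1 fit over 4 groups, the replicate number as a block, limma 3.58.1 on log2(FPKM + 1) and log2(FPKM + 0.1), and each library left out. Correction for a gene length trend and leaving out M 5XFAD NX 4 and 5 together were added after seeing the data. The fits were tested on simulated data. Promoters came from RefSeq (GRCm38.p6), and figures and tables were made with Python 3.11.15 (pandas 2.3.3, matplotlib 3.10.9).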

Additional observations from a re-analysis of the deposited data

Results flagged for a closer look

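Tgfbr2 in F 5XFAD CIH 5, at 1352 CPM, lay farther from the other libraries of its group than Dixon's test allows at the 95% level. The other 4 libraries were at 1073 to 1143 CPM, and the gap was 0.747 of the range of the group. Of 72 groups of member values tested, 1 was past the limit, and chance alone is past it in about 1 in 20 groups. Without this library Tgfbr2 was still called in F WT CIH vs F 5XFAD CIH.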

How the results depend on the processing

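Over the 17 member values called, 392 recomputed values held the direction, 364 on the same side of the threshold and 28 not past it, of which 17 come from the limit of 1 on log2FC. With that limit 0 members were called in every comparison. The number called in F WT NX vs F 5XFAD NX (0) was 4 with DESeq2, 4 in 1 fit over all groups, 2 with the likelihood ratio test, 2 with limma at a pseudocount of 1 or 0.1 FPKM, and 1 with library size scaling, with no filter, with at least 10 counts in every library, or with the length trend removed. Leaving out 1 library gave 0 to 5 (5 without the library labelled F 5XFAD NX 4). In F WT CIH vs F 5XFAD CIH (5) it was 8 with library size scaling and with limma at either pseudocount, and 5 to 7 with 1 library left out. In M WT NX vs M 5XFAD NX (1) it was 0 at an adjusted p below 0.01, 2 with library size scaling, 2 in 1 fit, 3 with the length trend removed, 4 without M 5XFAD NX 4 and 5, and 1 to 2 with 1 library left out (2 without M 5XFAD NX 4). It was 7 throughout for M WT CIH vs M 5XFAD CIH and 4 throughout for M WT NX vs M WT CIH with 1 library left out, but 0 in 1 fit for the latter. The male interaction (0) gave 2 with no filter and 0 to 2 with 1 library left out (2 without M 5XFAD NX 1), and the other comparisons gave 0 with any library left out. Furin in M CIH turned from 0.33 to -0.031 with library size scaling. With the length trend removed, Skil was -0.48 in place of -0.73 in M CIH. The cause of these changes was not tested. The replicate number as a block gave 0 calls in M NX (Tgfbr2 at an adjusted p of 0.101) and the same counts elsewhere. The labels do not say whether an equal number ties libraries of different groups together. Correlations of same-numbered libraries lay between -0.494 and 0.351, which cannot decide this. Some differences of over 3 SE were not called (such as Tgfbr2, Tgfbr1 and Nrros in F NX, with 4 and 5 libraries). These members were called in F NX without the library labelled F 5XFAD NX 4.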
